A study of Mus musculus with 6 samples.

Results

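Adrenergic receptors and the subunits of protein kinase A were followed in pineal glands of newborn mice, in pools homozygous for a Neurod1 knockout and in wildtype pools, all of strain 129. The set had 10 genes, taken by name: the receptor genes Adra1b and Adrb1, the adenylyl cyclase gene Adcy1, the regulatory subunit genes Prkar1a, Prkar1b, Prkar2a and Prkar2b, the catalytic subunit genes Prkaca and Prkacb, and the transcription factor gene Crem. Probe sets that the platform annotation assigned to 1 gene alone existed for 9 of the 10, out of 18193 genes named on the array, and Adrb1 was not analysed here. There were 27 such probe sets, between 1 for Adra1b and 5 for Prkar1b. Values of a gene are those of the probe set with the highest mean over the 6 arrays, and the remaining ones are given beside it.

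Each genotype had 3 pools, numbered 1 to 3, and every pool held 3 whole glands taken by day at postnatal day 0 and was hybridised to 1 Affymetrix array. Both genotypes were housed with 12 h of light a day. The knockout is labelled as homozygous, and the labels used here say neither which part of Neurod1 was removed nor whether it was removed in the whole body. Knockout and wildtype pools of the same number carry the same date in their labels, so differences were also taken within each pool number. Neurod1 itself, the check of the labels, had signals of 390, 524 and 123 in knockout pools 1 to 3, against 9027, 9301 and 7519 in wildtype pools 1 to 3. Of the pineal markers, Tph1, the tryptophan hydroxylase gene of serotonin synthesis, had signals of 2755 to 12501 in knockout and 6296 to 15095 in wildtype pools. The homeobox gene Otx2, which is also on the list of choroid plexus markers, had 9618 to 12144 and 12786 to 15178. Signals were not high for every pineal marker. Rax had 35.8 to 84.3 in knockout and 105.3 to 220.5 in wildtype pools, and Slc18a1 had 143 to 193 and 125 to 142.

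The pineal gland makes melatonin at night under the control of noradrenaline from sympathetic nerves. Beta adrenergic receptors on pinealocytes act through adenylyl cyclase to raise cyclic AMP, and alpha adrenergic receptors strengthen that rise through calcium and protein kinase C. Cyclic AMP binds the regulatory subunits of protein kinase A and so frees its catalytic subunits, which phosphorylate the factor CREB and, in rodents, turn on Aanat, the gene of the rate-limiting enzyme of the nightly melatonin rhythm. Crem encodes relatives of CREB, among them the inducible repressor ICER, which limits the response.

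Regulatory subunits exist as type I and type II, each with an alpha and a beta form, and Prkar2b encodes the type II beta form. The promoter windows of the type II pair are shown because Prkar2b was the member whose groups stood apart and Prkar2a its nearest relative, and because basic helix-loop-helix factors such as NEUROD1 bind E-boxes, CANNTG. Sequences are those of RefSeq on GRCm38.p6, on the strand of the gene, from 250 bases before to 50 bases after an annotated start. Capitals mark each CANNTG, a motif that reads the same way on both strands apart from its middle bases. The Prkar2b window lies at chr12:32061228-32061527 on the minus strand and the Prkar2a window at chr9:108691893-108692192 on the plus strand.
Prkar2b: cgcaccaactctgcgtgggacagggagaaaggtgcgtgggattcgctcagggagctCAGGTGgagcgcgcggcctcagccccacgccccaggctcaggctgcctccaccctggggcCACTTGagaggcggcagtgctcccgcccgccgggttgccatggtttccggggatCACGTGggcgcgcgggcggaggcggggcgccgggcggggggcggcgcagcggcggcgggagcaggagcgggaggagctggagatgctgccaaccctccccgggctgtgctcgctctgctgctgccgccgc
Prkar2a: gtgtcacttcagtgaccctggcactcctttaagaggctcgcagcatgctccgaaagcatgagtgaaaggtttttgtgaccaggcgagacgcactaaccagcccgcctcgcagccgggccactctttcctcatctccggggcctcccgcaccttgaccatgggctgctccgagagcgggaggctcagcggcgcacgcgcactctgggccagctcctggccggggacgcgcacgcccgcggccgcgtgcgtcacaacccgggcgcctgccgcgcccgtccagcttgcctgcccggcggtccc
The Prkar2b window held 3 E-boxes that did not overlap. In order these were CAGGTG, which lies farthest upstream, then CACTTG, which follows it, and last CACGTG. The Prkar2a window held 0. The table's other Prkar2b window, at chr12:32060540-32060839, also held 0. Other members had as many or more: 2 overlapping Prkar1b windows held 5 each and 1 Prkar1a window held 3, so the count was not particular to Prkar2b. CANNTG occurs in 72.3% of the 32851 promoter windows of the table, so its presence is common. The form CATCTG, or CAGATG on the other strand, occurs in 17.2% of windows and in 0 of the 23 windows of the members. The full cyclic AMP response element, TGACGTCA, stood in 2 overlapping windows of Prkar1a and in 1.79% of all windows. These matches are letters in a window and show no binding.

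Signals are the deposited linear intensities, which had been scaled to a common level on every array. Log2 differences are knockout minus wildtype of log2(signal + 38.6), a scale that understates changes of dim genes. They come with the standard error (SE) or the 95% interval of a limma fit over all 12797 tested genes, with p-values adjusted by Benjamini-Hochberg over all of them. For the further probe sets of a gene the SE is that of the same model over 22012 single-gene probe sets, an addition made after the data had been seen. Levels of different probe sets cannot be set against each other, so values are compared between arrays, for 1 probe set or for a ratio or sum formed from the same probe sets on every array. Probe sets in the lowest 40% by mean were left out, after which 20 of the 27 probe sets and 8 of the 9 genes with a probe set were tested.

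None of the 8 tested members passed an adjusted p under 0.05 in limma, where the smallest adjusted p was 0.998. Across all tested genes 1 gene, Neurod1, was called lower, which is 0.00781%, and 0 were called higher, which is 0%. At an unadjusted p under 0.05 the fit held 1 of 8 members, Prkar2b, against 3.34% of all genes, and with the pool number as a block 1 of 8 against 6.24%. Means were lower in knockout for 7 members and higher for 1, against 5989 lower and 6808 higher of all 12797 tested genes. The median log2 difference was −0.09 over the members and 0.03 over all tested genes. For 6 of the 8 the difference was smaller than 0.2 in size. The knockout and wildtype pools did not overlap for 1 member with knockout lower, against 4.33% of all tested genes, and for 0 with knockout higher, against 5.77%. Knockout was lower within all 3 pool numbers for 2 members, Prkar2b and Prkar1a, against 15.4% of all tested genes. The smallest p that an exact permutation test of 3 pools against 3 can reach is 0.1, so none is given for single genes.

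**Figure D1:**
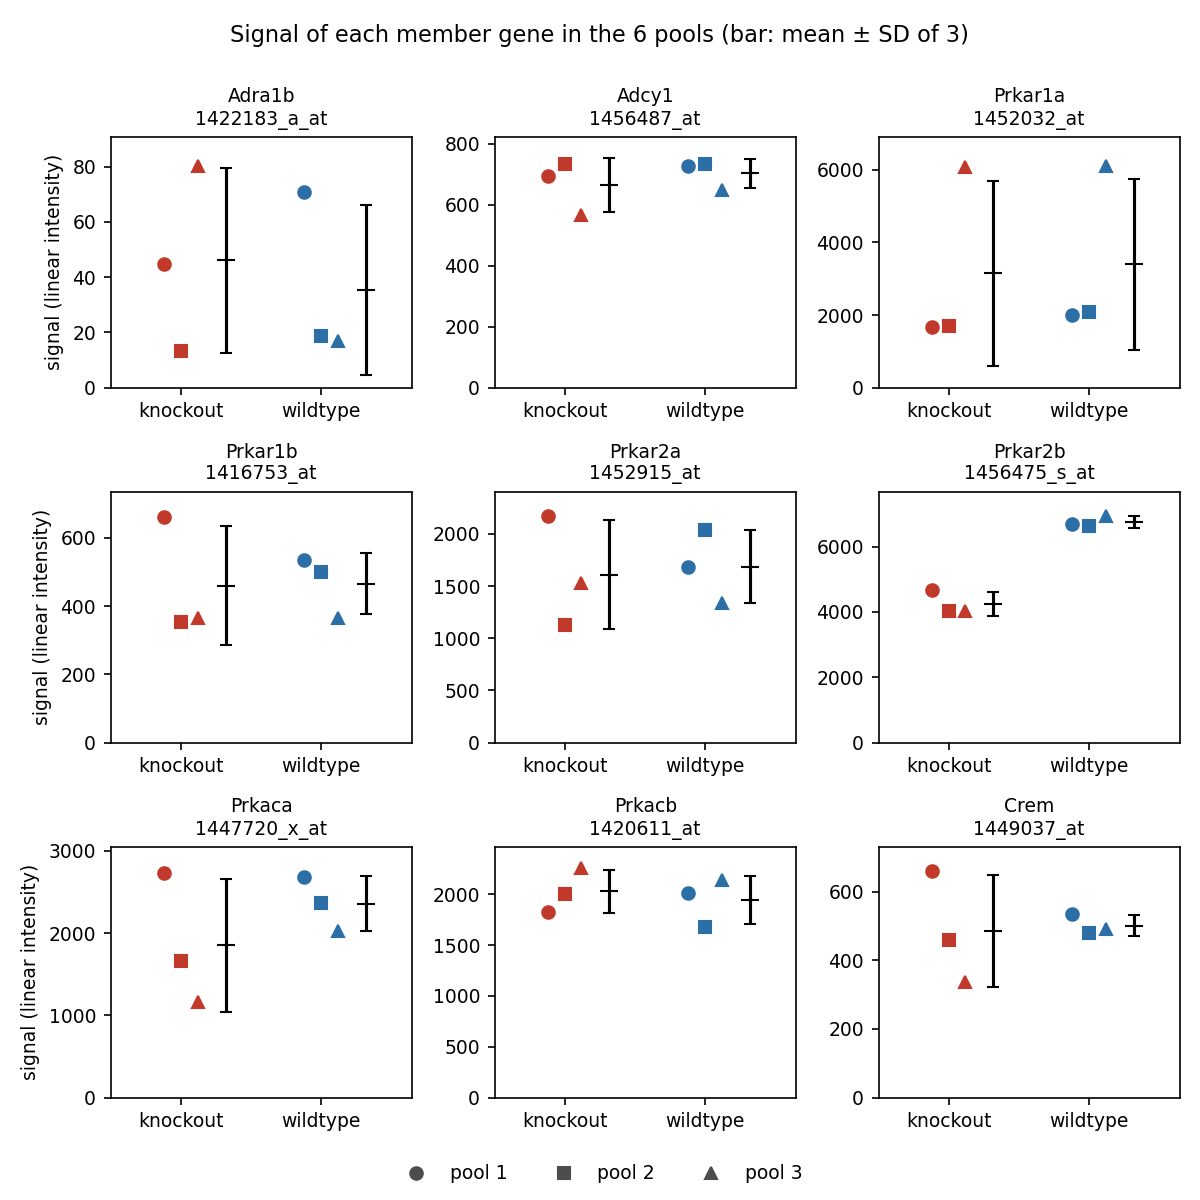
Signal (linear intensity) of the probe set of highest mean of each member gene in 3 knockout pools (left, red) and 3 wildtype pools (right, blue). Symbols give the pool number and the bars beside them the mean and SD of 3 pools. Prkar2b is the panel in which all knockout pools lie below all wildtype pools, and Prkar1a the one in which both pools numbered 3 stand high.

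Prkar2b was lower in every knockout pool than in any wildtype pool. Signals in probe set 1456475_s_at were 4661, 4035 and 4040 in knockout pools 1 to 3, against 6703, 6619 and 6951 in wildtype pools 1 to 3. The spread inside a group was small beside the gap: the means were 4246 ± 360 and 6758 ± 173 (SD, n = 3), a ratio of knockout to wildtype of 0.628. On the log2 scale the difference was −0.67 (SE 0.28; 95% interval −1.30 to −0.04). Its unadjusted limma p of 0.0390 ranked 322nd among the 12797 genes, in the lowest 2.52%, so the adjusted p was 0.998. Knockout minus wildtype came to −0.52 at number 1, −0.71 at number 2 and −0.78 at number 3. A block for the number gave an SE of 0.24, an interval of −1.22 to −0.12 and an adjusted p of 0.768 in limma.

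The other Prkar2b probe sets gave differences of the same size. Probe set 1438664_at had signals of 2704, 2376 and 2406 in knockout pools 1 to 3 and of 4696, 3331 and 3772 in wildtype pools 1 to 3, again without overlap. Its log2 difference was −0.64 (SE 0.29), and the ratio of means was 0.634. Probe set 1430640_a_at, which was dimmer, had 685, 559 and 421 in knockout and 1171, 929 and 668 in wildtype pools 1 to 3. Knockout pool 1 lay just above wildtype pool 3 there, so the groups overlapped, while the difference was −0.69 (SE 0.32) and the ratio of means 0.602. All 3 probe sets were lower in knockout within each of the 3 pool numbers, with differences between −0.79 and −0.48. In this array's naming the suffix _s_at marks probes that several transcripts can share and _a_at probes for several transcripts of 1 gene. The probe sets report on the same RNA and are not independent evidence.

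In tissue pieces of this kind, fewer cells of a type and less RNA per cell cannot be told apart. Of 10 pineal cell markers with a probe set, 8 had lower and 2 higher means in knockout, and none was listed at 0. Their median log2 difference was −0.52. Their summed signal was 38021, 31273 and 29326 in knockout pools 1 to 3 and 54244, 44313 and 37429 in wildtype pools 1 to 3. The sums overlapped, and knockout was lower within every pool number. Macrophage and microglia markers had higher means for 10 of 10 genes, with summed signals of 9427 to 13017 in knockout and 6293 to 7509 in wildtype pools. Pericyte and smooth muscle markers were higher for 8 of 8, at 14484 to 22660 and 10657 to 14086, and meningeal fibroblast markers for 8 of 8, at 105707 to 127612 and 82820 to 89197. Schwann cell and oligodendrocyte markers were higher for 4 of 6, namely Foxd3, Mbp, Sox10 and Erbb3. Olig1 and Olig2 were lower, at −0.52 and −0.08, with Olig2 at 1.7 to 13.3 over all pools. The sums of this list, 1193 to 1364 in knockout and 740 to 981 in wildtype pools, did not overlap. Of its genes, Foxd3 and Mbp did not overlap either, but Sox10, Erbb3, Olig1 and Olig2 did. Choroid plexus markers, a tissue near the gland, set single pools apart in both genotypes, with sums of 101997, 82890 and 12722 in knockout pools 1 to 3 and 15456, 56165 and 87365 in wildtype pools 1 to 3. Their most abundant gene, Ttr, the transthyretin gene, had 685 to 87464 in knockout and 898 to 60484 in wildtype pools. Central neuron markers had higher means in knockout for 6 of 9 genes and lower for 3. Their sums overlapped, at 35498 to 40409 in knockout and 37282 to 47311 in wildtype pools. Astrocyte and glia markers had higher means for 5 of 7 genes and lower for 2. Their sums overlapped as well, at 5760 to 18926 in knockout and 8440 to 11261 in wildtype pools. The part of all these cell types in the Prkar2b difference was not tested.

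Ratios of Prkar2b to another subunit were also formed inside each array, with the offset of 38.6 added to both signals. Taken relative to the wildtype mean, the log2 ratio of Prkar2b to Prkacb was −0.45, −0.79 and −0.95 in knockout pools 1 to 3 and −0.07, 0.17 and −0.10 in wildtype pools 1 to 3. The ratio to Prkar1b was −1.02, −0.39 and −0.43 in knockout and −0.21, −0.14 and 0.35 in wildtype pools. In these ratios the groups did not overlap. The groups of Prkar2b itself already stood apart, while Prkacb and Prkar1b differed by 0.06 and −0.05. These ratios are therefore not separate evidence, and no share over other gene pairs was formed. The ratio to Prkar2a was −0.91, −0.19 and −0.62 in knockout and −0.03, −0.32 and 0.35 in wildtype pools, where knockout pool 2 lay above wildtype pool 2. The ratios to Prkaca and Prkar1a overlapped as well, with knockout means of −0.25 and −0.48.

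Of the receptors, the data hold Adra1b, the alpha adrenergic receptor gene, and only at the bottom of the scale. Signals in its probe set 1422183_a_at were 44.8, 13.2 and 80.2 in knockout pools 1 to 3, against 70.9, 18.6 and 16.8 in wildtype pools 1 to 3. All 6 values lay under the filter, which corresponds to a signal of 105, and they overlapped, so the gene was not tested. Among the other adrenergic receptor genes, 1 of 7 had a probe set of its own here, and it was also under the filter.

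Adcy1, the calcium-stimulated adenylyl cyclase gene, varied little among the pools. Probe set 1456487_at read 694, 734 and 567 in knockout pools 1 to 3 and 728, 734 and 647 in wildtype pools 1 to 3. The wildtype values lay inside the wider knockout range. Pool 3 was lowest in each group, and knockout pool 3 lay below every wildtype pool. The difference was −0.08 on the log2 scale (SE 0.25), with a 95% interval of −0.64 to 0.48. Its other probe set, 1445359_at, was under the filter, at 27.8 to 138 in knockout and 37.0 to 148 in wildtype pools.

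Prkar1a, the type I alpha regulatory subunit gene, differed between pool numbers by more than between genotypes. Probe set 1452032_at had signals of 1673, 1687 and 6091 in knockout pools 1 to 3, against 1999, 2078 and 6119 in wildtype pools 1 to 3. Both pools numbered 3 were thus far above the remaining 4, whatever the genotype. Probe set 1425550_a_at of the same gene ran the other way, at 2292, 2447 and 1021 in knockout and 3472, 2894 and 1138 in wildtype pools 1 to 3, with both pools numbered 3 lowest. The genotype difference was −0.18 (SE 0.60, interval −1.54 to 1.17) for 1452032_at in the fit over genes. Adding the pool number as a block brought the SE to 0.23 and the interval to −0.72 to 0.35, and within numbers 1, 2 and 3 the difference was −0.25, −0.29 and −0.01.

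Probe set 1425550_a_at was likewise lower in knockout within every number, by −0.59, −0.24 and −0.15. The dimmer probe set 1447635_at had 278, 336 and 223 in knockout and 166, 177 and 259 in wildtype pools 1 to 3, a difference of 0.41 (SE 0.29) with the opposite sign. For Prkar1a the direction of the genotype difference therefore depended on the probe set. Among 22012 tested single-gene probe sets, 2% had both pools numbered 3 more than 0.5 log2 units above the other 4 and 2.44% more than 0.5 below them. Of 5484 genes with several tested probe sets, 9 had a probe set of each kind at number 3, and Prkar1a was among them. This limit of 0.5 was chosen after the values were seen. The labels tie a number to a date and say nothing more of what the pools of a number share, so the source of this split was not tested.

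**Figure D2:**
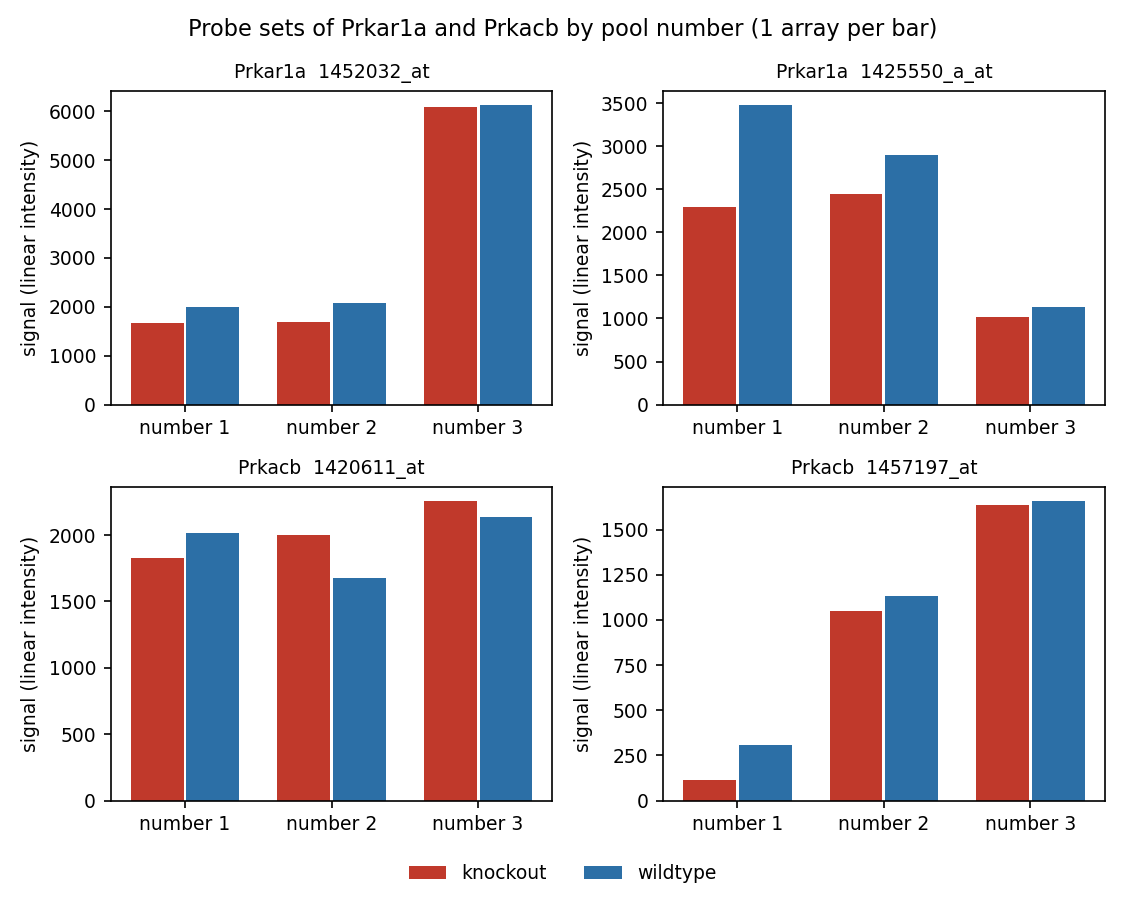
Signal (linear intensity) of 2 probe sets each of Prkar1a and Prkacb, by pool number, with knockout (left bar) and wildtype (right bar) at each number, 1 array per bar. At number 3 Prkar1a is high in 1452032_at and low in 1425550_a_at in both genotypes, and Prkacb is low at number 1 in 1457197_at but not in 1420611_at.

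Prkar1b, the neuronal type I beta form, had no direction shared by all 3 pool numbers. Probe set 1416753_at read 661, 354 and 366 in knockout pools 1 to 3 and 534, 500 and 364 in wildtype pools 1 to 3. Knockout pool 1 was the highest and knockout pool 2 the lowest of all. It differed by −0.05 (SE 0.31), with an interval of −0.75 to 0.65 and differences of 0.29, −0.46 and 0.01 within the 3 numbers. The other 3 tested probe sets gave −0.16, −0.27 and −0.43, with SEs of 0.38 to 0.43, and knockout was lower at number 2 in all 4. Probe set 1416754_at was under the filter, at 25.2 to 55.6 in knockout and 8.4 to 41.4 in wildtype pools, a difference of 0.19.

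Prkar2a, the widely expressed type II alpha form, also had overlapping groups. Probe set 1452915_at had signals of 2169, 1128 and 1534 in knockout pools 1 to 3, against 1683, 2040 and 1335 in wildtype pools 1 to 3. The difference was −0.09 (SE 0.33, interval −0.85 to 0.66), and within numbers 1, 2 and 3 it was 0.36, −0.83 and 0.19, so its sign was not shared. Probe set 1428783_at had 381, 522 and 625 in knockout and 903, 658 and 494 in wildtype pools 1 to 3, a difference of −0.39 (SE 0.32). At number 1 these probe sets moved in opposite directions, at 0.36 and −1.17. Probe sets 1432409_at and 1427414_at were under the filter. The first had 25.1 to 90.8 in knockout and 34.7 to 57.1 in wildtype pools, a difference of 0.005. The second had 14.7 to 61.5 and 9.7 to 37.1, a difference of 0.22.

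The catalytic subunits are the kinase itself, and Prkaca encodes its alpha form. Probe set 1447720_x_at had signals of 2735, 1661 and 1159 in knockout pools 1 to 3 and of 2685, 2370 and 2019 in wildtype pools 1 to 3. Knockout pools 2 and 3 were below every wildtype pool, while knockout pool 1 was the highest of the 6. The difference was −0.42 (SE 0.36, interval −1.24 to 0.40), and 0.03, −0.50 and −0.78 within the 3 numbers. Leaving out knockout pool 1 gave −0.74, and leaving out knockout pool 3 gave −0.13, so its size rested on which knockout pools entered. Probe set 1450519_a_at had 1505, 1207 and 913 in knockout and 1035, 1063 and 785 in wildtype pools 1 to 3, a difference of 0.30 (SE 0.30), and was higher in knockout within every number, by 0.52, 0.18 and 0.21. The Prkaca probe sets thus had opposite signs. The suffix _x_at marks a probe set with probes that match other transcripts too.

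Prkacb, the catalytic beta form found in many neurons, stood at a similar signal in all pools by its brightest probe set. Probe set 1420611_at had signals of 1827, 2002 and 2253 in knockout pools 1 to 3, against 2015, 1678 and 2137 in wildtype pools 1 to 3. The difference was 0.06 (SE 0.28, interval −0.57 to 0.69). Probe set 1457197_at of the same gene had 113, 1049 and 1635 in knockout and 308, 1134 and 1655 in wildtype pools 1 to 3. Both pools numbered 1 were far below the others there, a pattern that 2.73% of tested probe sets showed at number 1 with a gap of more than 0.5 log2 units. Its genotype difference was −0.44 (SE 0.88), and −1.19, −0.11 and −0.02 within numbers 1, 2 and 3. Probe set 1420610_at, under the filter on its mean, had 61.5 to 108 in knockout and 25.4 to 134 in wildtype pools, a difference of 0.26.

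**Figure D3:**
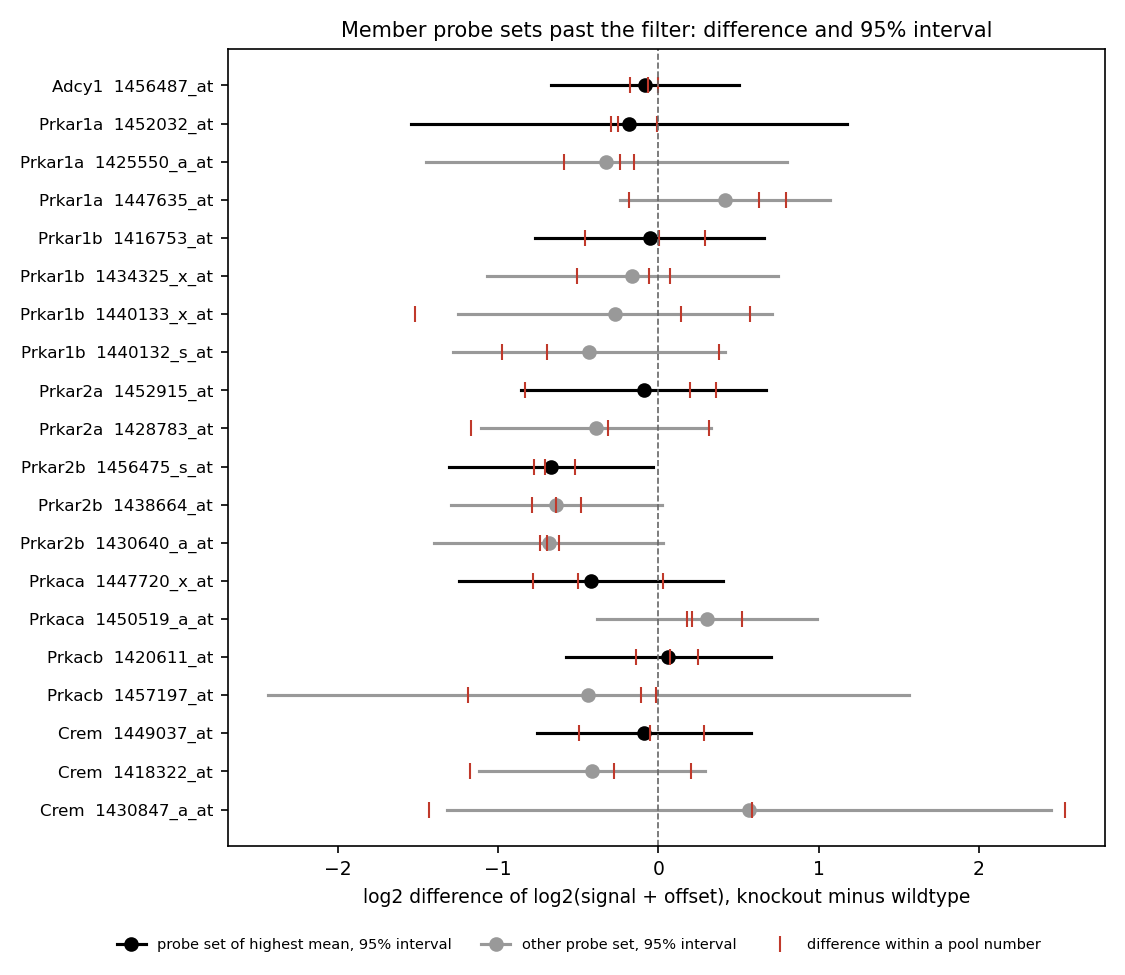
Log2 difference, knockout minus wildtype, of the 20 member probe sets past the filter (points), with the 95% interval of a limma fit over all tested probe sets (lines) and the differences within each pool number (red ticks). The 3 Prkar2b probe sets lie between −0.69 and −0.64 with all ticks below 0, and 1456475_s_at is the 1 probe set of the 20 whose interval does not reach 0.

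Crem, whose products include the repressor ICER, had overlapping groups in its brightest probe set, 1449037_at. Signals were 659, 459 and 337 in knockout pools 1 to 3, against 535, 478 and 490 in wildtype pools 1 to 3. The knockout pools spread around the narrow wildtype range, at 485 ± 163 and 501 ± 29.9 (SD, n = 3). The difference was −0.09 (SE 0.29, interval −0.74 to 0.56), and 0.28, −0.05 and −0.50 within the 3 numbers. Probe set 1418322_at had 559, 397 and 292 in knockout and 479, 490 and 708 in wildtype pools 1 to 3, a difference of −0.42 (SE 0.31).

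In probe set 1430847_a_at of Crem a single pool stood apart. Signals were 121, 716 and 9.6 in knockout pools 1 to 3, against 67.8, 91.4 and 91.4 in wildtype pools 1 to 3. Knockout pool 2 was thus several times above every other pool, and the difference of 0.56 had an SE of 0.83. The mean of this probe set passed the filter, at a signal of 105, only through that pool. Its difference is therefore a description and no support for a change. Crem also has an activator form that is abundant in spermatids. The summed signal of 11 spermatid genes, a list made after the data had been seen, was 711, 31396 and 518 in knockout pools 1 to 3 and 359, 4689 and 939 in wildtype pools 1 to 3. The same knockout pool was the highest, and none of the 11 genes was listed at 0. Among wildtype pools the sum was highest in pool 2, where the Crem signal was 91.4, as in wildtype pool 3. The part of these transcripts in the Crem value was not tested.

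The dim Crem probe set 1430598_at, under the filter on its mean, had 103, 128 and 113 in knockout and 45.0, 76.9 and 48.2 in wildtype pools 1 to 3. Knockout was higher without overlap, with a log2 difference of 0.70, but no test was made at this signal.

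**Figure D4:**
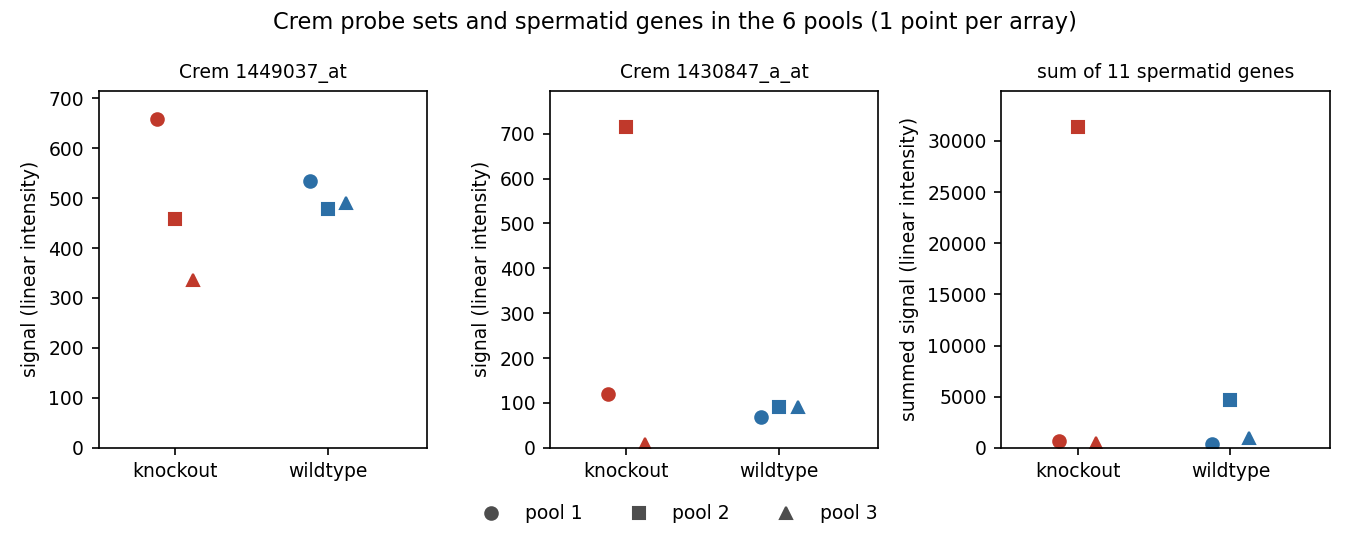
Signal (linear intensity) of Crem probe sets 1449037_at and 1430847_a_at, and summed signal of 11 spermatid genes, in 3 knockout pools (left, red) and 3 wildtype pools (right, blue), with 1 point per array and symbols for pool numbers. Knockout pool 2 is the highest in the middle panel, at 716, and in the right panel, at 31396, and not in the left one.

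The genes whose pattern over the 6 arrays was most like that of Prkar2b were Zfp438, Leprotl1, Cplx4, Pcdhb20 and Gnat2, by Pearson's r between 0.972 and 0.982. Over 12797 genes and 6 arrays, 94 genes had an r above 0.9, and all of them share these arrays. The split of Prkar2b between genotypes entered r. That these genes were lower in knockout therefore follows from the choice and is no separate evidence. Leprotl1 had signals of 271, 251 and 279 in knockout pools 1 to 3, against 542, 499 and 552 in wildtype pools 1 to 3. Cplx4, which encodes a complexin of retinal synapses, had 1630, 1560 and 1275 in knockout and 3045, 2768 and 2804 in wildtype pools. Gnat2, the cone transducin alpha gene, had 529, 406 and 331 in knockout and 829, 763 and 793 in wildtype pools. Their log2 differences were −0.90, −0.94 and −0.88. For Zfp438, which had the highest r, and Pcdhb20 the differences were smaller than that of Prkar2b, at −0.47 and −0.34. None of the 5 passed the adjusted threshold in limma.

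Other genes of adrenergic and cyclic AMP signalling numbered 124 in 10 lists, of which 107 had a probe set of their own and 95 were tested. None passed an adjusted p under 0.05 in either direction. At an unadjusted limma p under 0.05 there was 1 of 95, Gnb5, against 3.34% of all genes. With the pool number as a block there were 4 of 95, Gnb5 and Fos with knockout lower and Akap13 and Prkca with knockout higher, against 6.24% of all genes. Means were lower for 39 and higher for 56, against 5989 lower and 6808 higher of all 12797 tested genes. The median log2 difference of the 95 was 0.05, against 0.03 over all genes. The groups did not overlap for 14, with knockout lower for 7 and higher for 7, which is 14.7% against 10.1% of all tested genes. Values below are given for the 2 genes of each list with the smallest p.

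Among 19 tested G protein subunit genes, 10 had lower and 9 higher means. Gnb5, a beta subunit gene of neurons and photoreceptors, had signals of 529, 591 and 597 in knockout pools 1 to 3, against 1058, 859 and 774 in wildtype pools 1 to 3, a log2 difference of −0.61 (SE 0.25). Gng4, a gamma subunit gene, averaged 625 ± 275 in knockout and 890 ± 197 in wildtype pools (SD, n = 3; −0.54). Other adenylyl cyclase genes had 5 higher and 3 lower means of 8. Adcy5 had 416, 519 and 442 in knockout and 358, 251 and 299 in wildtype pools 1 to 3, without overlap, a difference of 0.55 (SE 0.25), and Adcy8 averaged 217 ± 50.5 and 143 ± 23.4 (0.49).

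Phosphodiesterases, which break down cyclic nucleotides, had 9 higher and 4 lower means of 13. Pde1c, a calcium-stimulated form, averaged 768 ± 185 in knockout and 1121 ± 132 in wildtype pools (SD, n = 3; −0.54) without overlap, while Pde2a averaged 1413 ± 227 and 1024 ± 443 (0.54). A-kinase anchor proteins, which tether the regulatory subunits, had 7 higher and 6 lower means of 13. Akap12 had signals of 24199, 25489 and 21455 in knockout pools 1 to 3 and of 14804, 17668 and 15292 in wildtype pools 1 to 3, a difference of 0.57 (SE 0.28). The groups did not overlap for Akap12, a gene that fibroblasts and vascular cells also express. The summed meningeal fibroblast markers did not overlap either. Nor did those of pericytes and smooth muscle, at 14484 to 22660 in knockout and 10657 to 14086 in wildtype pools. The summed endothelial markers overlapped, at 8942, 14010 and 16585 in knockout and 13077, 10626 and 9918 in wildtype pools 1 to 3. The part of these cells in the Akap12 value was not tested. Akap13 averaged 3499 ± 1133 and 2180 ± 470 (0.64).

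Of 4 tested genes among kinase inhibitors, Prkx and Epac, Pkia, an inhibitor of the catalytic subunits, had 1796, 1519 and 1052 in knockout and 1932, 1886 and 1909 in wildtype pools 1 to 3, a difference of −0.41 (SE 0.30) without overlap. Prkx had a difference of 0.30. CREB family genes and coactivators had 7 higher and 4 lower means of 11. Creb1 had 2171, 6912 and 4219 in knockout and 5461, 7140 and 5958 in wildtype pools 1 to 3, which overlapped, with a difference of −0.62 (SE 0.43). Atf2 averaged 2486 ± 724 and 3550 ± 149 (SD, n = 3; −0.55).

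Receptor kinases, arrestins and RGS genes had 5 higher and 2 lower means of 7, with 0.59 for Rgs4 and 0.39 for Grk3. In the calcium and protein kinase C arm 5 of 9 were higher, with 0.58 for Prkca, whose groups did not overlap at 2158 to 2412 in knockout and 1123 to 1843 in wildtype pools, and −0.46 for Plcb1. Genes that cyclic AMP induces in the gland had 7 higher and 4 lower means of 11. Per1, a clock gene, averaged 683 ± 327 in knockout and 423 ± 57.5 in wildtype pools (SD, n = 3; 0.56). Fos, an immediate early gene, had signals of 6120, 1396 and 2522 in knockout and 8988, 3947 and 4683 in wildtype pools 1 to 3, which overlapped, a difference of −0.97 (SE 0.55). Within numbers 1, 2 and 3 it was −0.55, −1.47 and −0.88, and the block gave an SE of 0.27 and an adjusted p of 0.768 in limma. Aanat, named after its values were seen, had 384, 370 and 230 in knockout and 397, 450 and 512 in wildtype pools 1 to 3. Its groups did not overlap, though knockout pool 1 lay close to wildtype pool 1, and the difference was −0.45 (SE 0.28, adjusted p = 0.998 in limma).

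**Figure D5:**
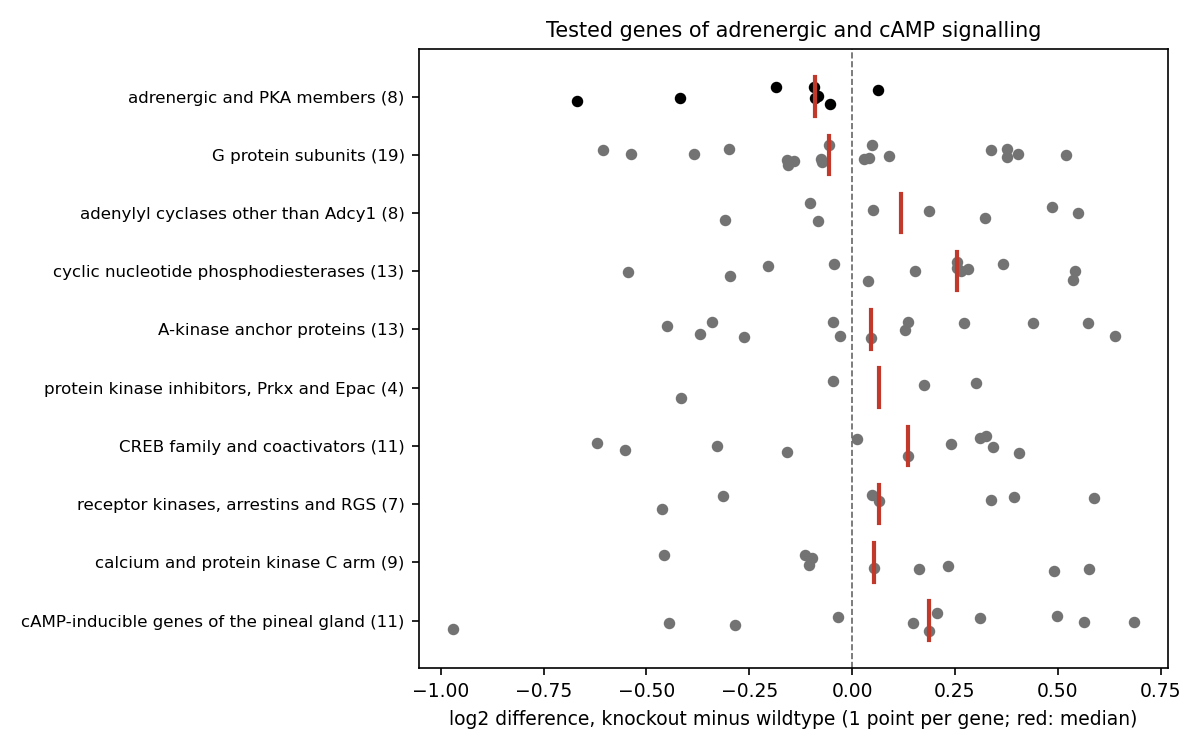
Log2 difference, knockout minus wildtype, of the 8 tested members (top row, black) and of the tested genes of 9 other lists of adrenergic and cyclic AMP signalling (grey, 1 point per gene), with the median of each row in red and the number of tested genes in brackets. Medians lie between −0.09 and 0.26, points fall on both sides of 0 in every row, and none passed the adjusted threshold.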

How the data were processed

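Pineal RNA of 3 knockout and 3 wildtype pools was amplified once, labelled with biotin and hybridised to 1 array per pool, per the labels' protocols. The authors deposited 1 table of linear signal intensity for 45037 probe sets, made with GCOS (no version) per the submitters' processing notes. How GCOS computed the signal is not stated here. The 2% trimmed mean of each deposited intensity column lay between 499.5 and 499.96, and medians between 132 and 184. Scanner files and detection calls were not used here.

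Values were taken as log2(signal + 38.6), the offset being the 20th percentile of all values. Names came from the platform annotation, in which 34945 probe sets named 1 gene, and RefSeq identifiers (GRCm38.p6) changed 0 symbols. The dimmest 40% of probe sets by mean were left out, and 12797 genes were fitted in limma 3.58.1 under R 4.3.3 (lmFit, eBayes with trend, two-sided, Benjamini-Hochberg adjusted p under 0.05). The script was tested on simulated data. The median SE over genes was 0.34, and 0.28 with a block. The number of arrays limits the precision.

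Named were all members, Neurod1, the 2 genes of smallest p in each pathway list and the 5 genes most like the member of smallest p. Members and lists were chosen with earlier results of these data known. Pools of a number share a date in the labels, and their deviations from group means correlated by 0.32, 0.25 and 0.36 across genes within numbers 1, 2 and 3, so pools were also paired by number in a fit with a replicate block. Per the design text, pools were sampled separately. Other alternatives changed the offset, normalization, filter, choice of probe sets, variance model and array weights, or left out pools.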

Additional observations from a re-analysis of the deposited data

How the results depend on the processing

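Prkar2b was lower in knockout under all 20 alternatives, between −0.84 with arrays scaled to a common median and −0.61 without both pools numbered 3, and past the adjusted threshold with limma array weights alone (−0.71, adjusted p = 0.00673). The estimation of those weights stopped short of its convergence tolerance. The adjusted p of Prkar2b in the other alternatives lay between 0.523 and 1.00. The weights were 6.20 for knockout pool 2 and 7.05 for wildtype pool 2, against 0.541 or less for each other array, and they called 1420 genes lower and 1512 higher, 3 members lower (Prkar2b, Prkar2a at −0.73, adjusted p = 0.0131, and Prkaca at −0.51, adjusted p = 0.0340), and 6 pathway genes lower and 17 higher. With the replicate block, which pairs pools by number, 1 gene was called lower and 0 members, as without it. Neurod1 was the 1 gene called lower; 0 were called without an offset, 0 without both pools numbered 1, 0 without both numbered 2 and 0 without both numbered 3, the last 3 being alternatives chosen after seeing the data. Leaving out 1 pool gave 0 to 1 genes, with 0 without knockout pool 1 or any wildtype pool.

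Signs of small differences were not stable. Leaving out 1 pool gave −0.15 to 0.0226 for Adcy1, −0.80 to 0.34 for Prkar1a, −0.33 to 0.0924 for Prkar1b, −0.33 to 0.13 for Prkar2a, −0.0379 to 0.13 for Prkacb and −0.32 to 0.13 for Crem. Prkacb was −0.11 with arrays scaled to a common median, −0.19 with the mean of its probe sets, −0.44 with the probe set of second highest mean and −0.0316 without both pools numbered 2. Without those pools Prkar1b was 0.15 and Prkar2a 0.28. Prkaca was 0.30 with its other probe set. Crem was 0.0196 with the mean of its probe sets and 0.11 without both pools numbered 3. The cause was not tested. Signals near those of Adra1b are too dim to show a change.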

Other observations

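The sperm anchor protein genes Akap4 and Akap3 had signals of 764 and 603 in knockout pool 2 and of 351 and 199 in wildtype pool 2. In the other 4 pools they lay between 76.3 and 224 for Akap4 and between 20.4 and 90.7 for Akap3. Markers that sympathetic neurons, whose fibres release noradrenaline in the gland, share with adrenal chromaffin cells had higher means in knockout for 4 of 6 genes and a summed signal of 911 to 1219 in knockout and 658 to 1070 in wildtype pools. Th, the tyrosine hydroxylase gene, had signals of 259, 169 and 218 in knockout pools 1 to 3, against 203, 322 and 226 in wildtype pools 1 to 3. Dbh, the dopamine beta-hydroxylase gene, had 205, 170 and 177 in knockout and 130, 177 and 239 in wildtype pools 1 to 3. Slc6a2 had 467, 495 and 414 in knockout and 202, 373 and 378 in wildtype pools 1 to 3, a log2 difference of 0.52. The rest were dim, with Phox2a at 37.6 to 157, Hand2 at 25.6 to 117 and Gata3 at 6.2 to 27 over all pools. Of these 6 genes, 3 passed the filter.

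Besides Prkar1a, the genes with 1 probe set high and another low in both pools numbered 3 were Atp2a2, Dclk1, Fkbp1a, Mtch2, Rab2a, Smarca5, Ube2j1 and Vcp. At number 1 there were 6 such genes and at number 2 there were 0.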
